A study of Mus musculus with 23 samples.

Results

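Histone acetylation, deacetylation and methylation are set by enzymes that write, remove or read marks on histone tails. The genes described here were taken from an Illumina mouse bead array by symbol: those starting with Hdac, Sirt, Kat and a digit, Kdm, Setd, Prmt or Brd and a digit, together with Ezh1, Ezh2, Ehmt1, Ehmt2, Rest, Sin3a and Rcor1. This rule found 58 of the 15161 genes with a symbol on the array, through 89 of 19851 probes, and each gene was read by its probe with the highest mean over 23 arrays. Of the 58 genes, 52 passed the filter on dim probes and were tested among 9849 genes in all. The histone acetyltransferases Crebbp and Ep300 were not analysed here.

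RNA came from 2 mouse striatal cell lines, Q111, from a Huntington disease model and with the long-repeat form of huntingtin, and Q7, its control line, both known as immortalised progenitor lines. Cells of each line received cystamine at 250 µM, ZDON at 50 µM or Boc-DON at 50 µM for 12 h, or the control treatment, which made 8 groups of 3 arrays. Q7 with Boc-DON had 2 arrays, because 1 failed the submitters' quality control. The stated aim was to test inhibition of transglutaminase 2, an enzyme that cross-links proteins at glutamines and that all 3 compounds are used to inhibit. As far as the labels say, each genotype is 1 line, so the huntingtin allele and other differences between the lines cannot be told apart, nor can fewer expressing cells and less RNA per cell. The controls carry no vehicle, dose or time, which cannot be told apart from the compounds. Nothing says that replicates were separate cultures, so p-values measure the spread between these arrays, which may be technical.

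Before normalization the arrays had median signals from 107 to 165 intensity units, and the replicate number was the BeadChip, so that replicates 1, 2 and 3 of every group lay on chips 1, 2 and 3. On Q7 ZDON replicate 3 a probe for 18S ribosomal RNA read 12.51 on the log2 scale, against 13.84 to 14.59 on the other arrays, and the called line differences in which this array read lowest are given without it too. Tgm2, the gene of the compounds' target, differed by −0.13 on the log2 scale between Q111 and Q7 (adjusted p = 0.666), and Htt, the huntingtin gene, by −0.22 (adjusted p = 0.016), over the 4 treatments. Of 8 striatal projection neuron markers on the array, Foxp1 alone was above the array median on every array, and Bcl11b, Gad1 and Rgs9 failed the filter. Of 8 neural progenitor markers, Dlx1, Nes, Sox2 and Vim were above the median on every array, and Fabp7, Msi1 and Pax6 failed the filter. Of 8 fibroblast markers, Col1a1 alone was above the median on every array, and Lum, Postn and Thy1 failed the filter. Of 6 astrocyte markers, Slc1a3 alone was above the median on every array, and Aqp4, Gfap and Slc1a2 failed the filter. Of 5 microglial markers, Tmem119 alone was above the median on every array, and Aif1, Cx3cr1, Itgam and Ptprc failed the filter. The mean percentile of the fibroblast markers within an array ranged from 42.5 to 56 in Q111 and from 37.5 to 45.5 in Q7. That of the progenitor markers ranged from 51.7 to 63.1 in Q111 and from 45.1 to 55.5 in Q7. Oligodendrocyte markers ran the other way, from 14.7 to 34.7 in Q111 and from 24.4 to 40.8 in Q7. Ranges lay close for striatal neuron markers (35.8 to 44.8 in Q111, 33.7 to 45.3 in Q7) and astrocyte markers (36.4 to 47 and 37.3 to 48.8). They also did for microglial markers (27.3 to 35.8 and 28.2 to 38.8) and endothelial markers (16.3 to 34.5 and 17.2 to 34.7). The part of these marker genes in the line differences below was not tested.

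Acetyltransferases add acetyl groups to lysines, which loosens chromatin and is read by bromodomain proteins, and deacetylases of the zinc-dependent Hdac and NAD-dependent sirtuin families remove them. Methyltransferases and demethylases set and remove methyl groups on lysine or arginine, which mark active or silent genes depending on the residue. In Huntington disease, mutant huntingtin is known to bind and disturb acetyltransferases, normal huntingtin is known to hold the repressor REST in the cytoplasm, which the mutant form does less well, and deacetylase inhibitors have long been studied in its models. Rest recruits Sin3a and the Rcor1 corepressor with Hdac1, Hdac2 and Kdm1a to neuronal genes.

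Most of this machinery passed the filter on dim probes, 52 of 58 genes, beside 9849 of the 15161 genes with a symbol. Passing the filter does not show that a gene was expressed. Roles were set by gene symbol, and the activity of each gene's product on histones was not checked. All 7 acetyltransferases, 6 sirtuins and 10 lysine methyltransferases passed the filter, as did 9 of 10 zinc-dependent deacetylases, 9 of 11 lysine demethylases, 6 of 7 arginine methyltransferases, 3 of 4 bromodomain genes and 2 of 3 corepressors. Hdac9, Kdm4d, Kdm5d, Prmt8, Brd8dc and Rest did not pass, and none of them was above the array median on any of the 23 arrays. Rest lay on average at the 10.1th percentile of the probes of its array, between 0.368 and 43.4, so that no level could be set for the repressor that its partners Sin3a and Rcor1 serve. Ezh1, a Polycomb methyltransferase, was above the median on 6 arrays and Kdm1b, a histone H3 demethylase, on 11, so both were read near the middle of the intensity range.

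Between Q111 and Q7, few of these genes passed the test. With the 4 treatments averaged, 3 of 52 genes (5.77%) passed an adjusted p of 0.05 in limma's moderated test, against 11.3% of all genes tested. Kat2b (an acetyltransferase, PCAF) and Hdac10 (a deacetylase known for acting on polyamines) were higher in Q111, and Prmt6 (which methylates an arginine of histone H3) was lower in Q111. The share called was 3.85% of these genes upward against 6.46% of all genes, and 1.92% downward against 4.84%. At an unadjusted p under 0.05 in limma the order was the other way, with 16 of 52 genes (30.8%) against 24% of all genes. With the chip as a block, 7 genes passed (13.5%) against 17.2% of all genes, as Kdm5b, Ezh2, Setd1a and Sirt5 were added. Leaving out 1 array moved the count by over 1.5 times in 4 cases. It was 6 without Q111 cystamine replicate 3, against 13.9% of all genes, and 6 without Q7 control replicate 3, against 12.2%. It was 5 without Q111 control replicate 3, against 11.6% of all genes, and 1 without Q7 Boc-DON replicate 2, against 8.79%. Without Q7 ZDON replicate 3 it was 4, against 11.2%. It was 12 without chip 3, where 21.6% of all genes passed. With arrays scaled to a common median, 12.3% of all genes passed and the split of these genes was 5 higher and 0 lower in Q111, beside 2 higher and 1 lower with quantile normalization.

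Without a compound the comparison was less precise. Among the controls alone, 0 of 52 genes passed in limma, against 1.55% of all genes, and 3 of 52 (5.77%) had an unadjusted p under 0.05, against 10.5% of all genes. With the chip as a block, 1 gene, Prmt6, passed there, against 3.26% of all genes. Without chip 3, Prmt6, Setd4 and Sirt5 passed, against 3.97%, and without Q7 control replicate 3 Setd4 did, against 1.11%. The median difference of the 52 genes was −0.049 among the controls and −0.046 over the 4 treatments, beside −0.005 and −0.008 for all genes tested. Over the 4 treatments 37 of the 52 lay below 0 and 15 above, and the matching share of all genes is not given here. Median scaling shifts the median of all genes by 0.058 in this comparison, which is larger than this lean. Every one of the 52 intervals over the 4 treatments stayed within ±0.5, with a median half-width of 0.145.

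**Figure D1:**
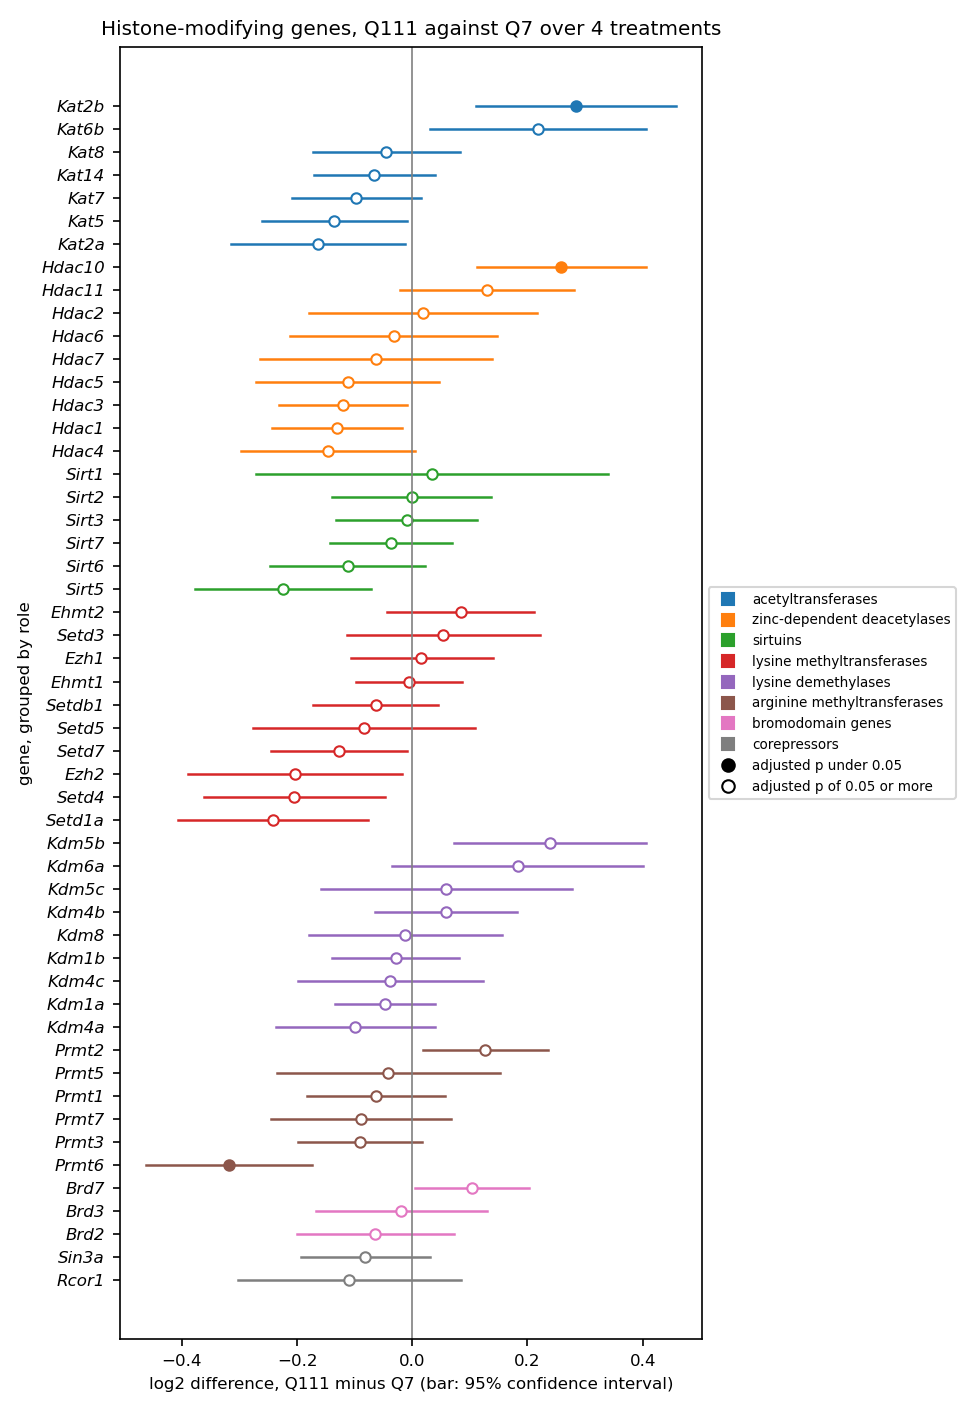
Difference in log2 intensity between Q111 and Q7, averaged over the 4 treatments, for each of 52 genes grouped by role on the vertical axis. Points are limma estimates, bars are 95% intervals, and filled points passed an adjusted p of 0.05. Prmt6 is lowest at −0.32 and Kat2b highest at 0.28, and Hdac10 at 0.26 is the third filled point.

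Prmt6 had the smallest adjusted p of the 52 genes between the lines. On the log2 scale it read 8.40, 8.23 and 8.12 on the Q111 control arrays, against 8.72, 8.79 and 8.69 on the Q7 control arrays. Over all treatments its lowest, median and highest values were 8.12, 8.41 and 8.65 on 12 Q111 arrays, against 8.10, 8.72 and 9.13 on 11 Q7 arrays. Control arrays of the 2 lines did not overlap, nor did those with cystamine or Boc-DON, but those with ZDON did. Prmt6 averaged 8.40 ± 0.155 in Q111 (SD, n = 12) and 8.72 ± 0.248 in Q7 (SD, n = 11).

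The level of Prmt6 in Q111 was 0.802 times that in Q7 (95% interval 0.726 to 0.887), a log2 difference of −0.32 (SE 0.0692, limma adjusted p = 0.00358). By treatment the difference was −0.37 with cystamine, −0.05 with ZDON, −0.37 with Boc-DON and −0.48 in the controls. The small value with ZDON rests on Q7 ZDON replicate 3, which read 8.10 where the other Q7 arrays with ZDON both read 8.72. Without that array the difference over the treatments was −0.37, and no array left out in turn ended the call (adjusted p from 6.22e-05 to 0.015). Within chips 1, 2 and 3 the difference was −0.33, −0.46 and −0.11. Chip 3 holds no Q7 Boc-DON array, so line differences within it leave that treatment out. Among the controls alone the difference of −0.48 (SE 0.134) had an adjusted p of 0.0849, and of 0.0348 with the chip as a block. Median scaling left −0.23 (adjusted p = 0.1) over the treatments.

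The other arginine methyltransferases did not pass in the line comparison with all arrays and quantile normalization. Prmt2, a coactivator of nuclear receptors, differed by 0.13 (SE 0.0519, adjusted p = 0.129), and passed with median scaling, at 0.23 (adjusted p = 0.0356). Prmt5, which makes symmetric dimethylarginine, differed by −0.04 (adjusted p = 0.845), and by 0.06 with median scaling. The second probe of Prmt5 gave −0.16 (SE 0.0925, limma adjusted p = 0.321 over all probes tested). Prmt1, the main asymmetric dimethylating enzyme, Prmt3 and Prmt7 lay at −0.06, −0.09 and −0.09, and Prmt7 passed without chip 3.

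Kat2b was the only acetyltransferase of 7 that passed with all arrays and quantile normalization. Its lowest, median and highest log2 values were 7.88, 8.13 and 8.61 on 12 Q111 arrays, against 7.51, 7.89 and 8.0 on 11 Q7 arrays. The lines overlapped between 7.88 and 8.0, and every array above 8.0 was from Q111. The level in Q111 was 1.22 times that in Q7 (95% interval 1.08 to 1.37), a log2 difference of 0.28 (SE 0.0829, limma adjusted p = 0.0278). Within chips 1, 2 and 3 it was 0.13, 0.34 and 0.36, and without chip 3 it was 0.23 (adjusted p = 0.0586).

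Single arrays and probes mattered for Kat2b. Leaving out any of 7 arrays ended the call, with adjusted p up to 0.0687. These were Q111 cystamine replicate 2, Q111 Boc-DON replicate 3, Q111 control replicate 2, Q7 cystamine replicate 1, both Q7 Boc-DON arrays and Q7 control replicate 2. The other probes of Kat2b gave 0.31 (adjusted p = 0.0668) and 0.05 (adjusted p = 0.817) over all probes tested, so the probes disagree.

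Among the remaining acetyltransferases, Kat6b (MORF) differed by 0.22 (SE 0.09, adjusted p = 0.134), and its other probes gave 0.08 and 0.06. It passed with median scaling, at 0.32 (adjusted p = 0.0395), without chip 3, also at 0.32 (adjusted p = 0.00277), and without Q111 cystamine replicate 3 (adjusted p = 0.0341). Kat2a, the GCN5 enzyme of the SAGA complex and paralogue of Kat2b, lay at −0.16, and Kat5, the TIP60 enzyme, at −0.13, with adjusted p of 0.168 and 0.167, and Kat5 passed without chip 3. The median of the 7 acetyltransferases was −0.066.

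Hdac10 was the only deacetylase that passed with all arrays and no block. Hdac10 read a lowest, median and highest of 7.98, 8.30 and 8.60 on 12 Q111 arrays, against 7.68, 8.03 and 8.24 on 11 Q7 arrays. Q111 arrays were higher than Q7 arrays with no overlap with cystamine and with ZDON, and overlapped with Boc-DON and in the controls. The level in Q111 was 1.2 times that in Q7 (95% interval 1.08 to 1.32), a log2 difference of 0.26 (SE 0.0703, limma adjusted p = 0.0176). It was 0.21, 0.30 and 0.36 within chips 1, 2 and 3. By treatment the difference was 0.18 with cystamine, 0.42 with ZDON, 0.30 with Boc-DON and 0.15 in the controls. Leaving out Q7 Boc-DON replicate 2 gave an adjusted p of 0.0519, and no other array ended the call. Without Q7 ZDON replicate 3, which read lowest at 7.68, the difference was 0.23 (adjusted p = 0.0317).

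The class I deacetylases, which act in nuclear corepressor complexes, stayed close together. Hdac1 differed by −0.13 (SE 0.0542, adjusted p = 0.138) and Hdac3, the enzyme of the NCoR complex, by −0.12 (adjusted p = 0.168). Hdac2 differed by 0.02 (adjusted p = 0.939), and by −0.01 with the chip as a block. Class IIa enzymes, which shuttle between nucleus and cytoplasm, gave −0.15 for Hdac4 (adjusted p = 0.222) and −0.11 for Hdac5 (adjusted p = 0.41). Hdac6, a cytoplasmic deacetylase of tubulin, differed by −0.03 (adjusted p = 0.876) and by 0.07 with median scaling. None of these 6 passed with all arrays, Hdac3 passed without chip 3, at −0.18 (adjusted p = 0.0213), and the widest 95% interval among them, that of Hdac2, ran from −0.18 to 0.22.

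Of the sirtuins none passed with all arrays and no block. Sirt5, a mitochondrial desuccinylase, read a lowest, median and highest of 8.52, 8.85 and 9.31 in Q111, against 8.89, 9.05 and 9.32 in Q7, with overlapping ranges. Its difference was −0.22 (SE 0.0736, adjusted p = 0.0529, and 0.033 with the chip as a block), and its second probe also gave −0.22 (adjusted p = 0.0578). Within chips 1, 2 and 3 Sirt5 differed by −0.46, −0.29 and 0.12, so that chip 3 ran the other way. Sirt5 passed without chip 3, at −0.38 (adjusted p = 0.00023). It also passed without replicate 3 of Q111 cystamine, Q111 ZDON, Q111 control, Q7 ZDON or Q7 control, with adjusted p from 0.0108 to 0.045. Sirt6, a chromatin-bound deacetylase, differed by −0.11 (adjusted p = 0.311). Sirt1, the main nuclear sirtuin, differed by 0.03 (SE 0.147, adjusted p = 0.926), and by −0.02 with the block. Sirt2, mainly cytoplasmic, differed by 0.00 (adjusted p = 0.997) to 2 decimals, by 0.01 with the block and by 0.12 with median scaling.

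Chip differences were large for a few of these genes. Sirt1 averaged 8.98 ± 0.15 on chip 1 (SD, n = 8), 8.88 ± 0.208 on chip 2 (n = 8) and 9.56 ± 0.275 on chip 3 (n = 7), and 68.1% of its variance lay between chips. The same share was 57.4% for Hdac2, 50.6% for Ezh2 and 49.1% for Kdm6a. These 3 were also highest on chip 3, where Ezh2, for one, averaged 11.55 against 11.21 on chips 1 and 2. Over the 52 genes, the treatment accounted for the largest share of variance in 23 (44.2%), the chip in 18 (34.6%) and the line in 11 (21.2%), beside 47.6%, 34.2% and 18.1% of all genes. Median shares were 17.2% for treatment, 9.4% for chip and 8.33% for line, beside 16.1%, 11.4% and 5.05% over all genes. With no structure at all, the shares would be 13.6%, 9.09% and 4.55%, by the number of groups compared.

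The 10 genes listed by symbol as lysine methyltransferases had a median of −0.073 between Q111 and Q7, and none passed with all arrays and no block. Setd1a, which methylates histone H3 lysine 4, differed by −0.24 (SE 0.0793, adjusted p = 0.0528, and 0.0263 with the block), by −0.06, −0.16 and −0.56 within chips 1, 2 and 3. It passed without Q111 cystamine replicate 1, Q7 ZDON replicate 1 or Q7 control replicate 1 (adjusted p from 0.0217 to 0.0481). Ezh2, the catalytic subunit of Polycomb repressive complex 2, read a lowest, median and highest of 10.99, 11.14 and 11.78 in Q111, against 11.16, 11.38 and 11.69 in Q7. Its difference was −0.20 (SE 0.0897, adjusted p = 0.161), and −0.23 with the block (adjusted p = 0.00413), by −0.24, −0.24 and −0.15 within the chips. Ezh2 passed without chip 3, at −0.24 (adjusted p = 0.00165), and without Q111 control replicate 3 (adjusted p = 0.0205). Setd4 differed by −0.20 (adjusted p = 0.088), and passed without chip 3, at −0.28 (adjusted p = 0.00148), and without Q111 cystamine replicate 3 or Q7 control replicate 3 (adjusted p of 0.0268 and 0.0103). Setd7 differed by −0.13 and passed without chip 3. Setdb1, which deposits methyl groups on histone H3 lysine 9, differed by −0.06, and by 0.04 with median scaling, and Ehmt2 (G9a, also a lysine 9 methyltransferase) by 0.08.

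The 9 lysine demethylases that were tested had a median of −0.012. Kdm5b, which removes methyl groups from histone H3 lysine 4, differed by 0.24 (SE 0.0798, adjusted p = 0.0574, and 0.0103 with the block) with 0.29, 0.24 and 0.08 within chips 1, 2 and 3. It passed with median scaling, at 0.28 (adjusted p = 0.0364), and without chip 3, at 0.26 (adjusted p = 0.0146). It also passed without Q111 cystamine replicate 2, Q111 Boc-DON replicate 2, Q7 cystamine replicate 3 or Q7 control replicate 3 (adjusted p from 0.0193 to 0.0453). Kdm6a, a demethylase of lysine 27, differed by 0.18 (SE 0.104, adjusted p = 0.309), and passed without chip 3, at 0.28 (adjusted p = 0.00149). Kdm1a, the REST partner LSD1, differed by −0.05 (adjusted p = 0.55), and by 0.05 with median scaling. Kdm1a was the steadiest of the 52 genes, with a residual SD of 0.0571 across the arrays, against a median of 0.166 and a highest of 0.399 for Sirt1.

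Readers and corepressors did not pass. Brd7, a subunit of a SWI/SNF complex, differed by 0.10 (SE 0.0476, adjusted p = 0.181), and Brd2, which reads acetylated histones, by −0.06 (adjusted p = 0.629), though by 0.03 with median scaling and 0.03 without chip 3. Rcor1, the CoREST scaffold, differed by −0.11 (SE 0.0931, adjusted p = 0.532) and Sin3a by −0.08 (SE 0.0537, adjusted p = 0.39), with 0.02 for Sin3a under median scaling.

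**Figure D2:**
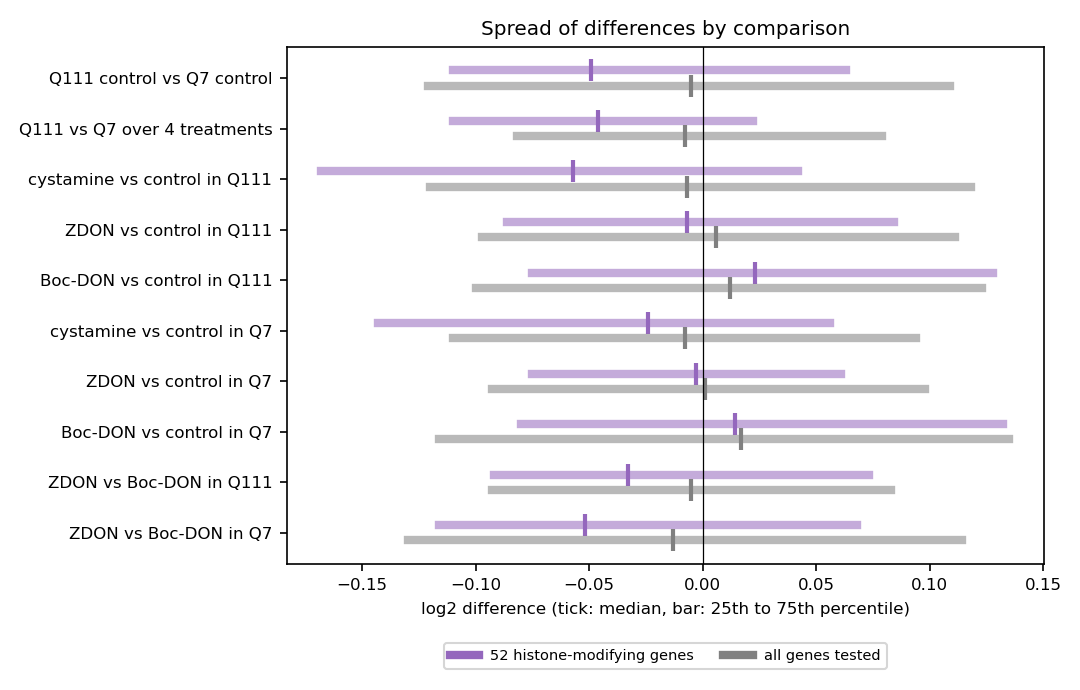
Log2 differences of the 52 genes and of all 9849 genes tested in 10 comparisons, with a tick at the median and a bar from the 25th to the 75th percentile. The medians of the 52 genes lie between −0.057 and 0.023, and their bars are narrower than those of all genes in each of the 10 comparisons.

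Cystamine was the compound with calls among these genes. Kdm5b and Setd7, a lysine methyltransferase of histone H3 lysine 4 and of other proteins, fell with cystamine when the 2 lines were averaged. They made 2 of 52 genes (3.85%), both lower, against 2.21% of all genes in either direction and 0.802% lower. In Q111 alone 0 of 52 passed in limma, against 0.64% of all genes, with 4 at an unadjusted p under 0.05, against 10.2%. In Q7 alone 0 passed, against 0.406%, with 3 at an unadjusted p under 0.05, against 7.63%. With the chip as a block 1, Kdm5b, passed in Q7, against 0.944%. Calls depended on the arrays in the model: when it held the 12 cystamine and control arrays alone, 0 of the 52 passed, against 1.26% of all genes, and with median scaling 7 did, all lower, where 6.37% of all genes passed.

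Kdm5b read 7.68, 7.26 and 7.38 on the Q111 cystamine arrays, against 7.88, 7.73 and 7.91 on the Q111 control arrays. In Q7 it read 7.04, 6.81 and 7.39 with cystamine, against 7.52, 7.42 and 7.82 in the controls. In both lines every cystamine array was below every control array. The level with cystamine was 0.731 times that of the controls (95% interval 0.624 to 0.856), a log2 difference of −0.45 (SE 0.109, limma adjusted p = 0.0285). It was −0.40 in Q111, with an adjusted p of 0.356, and −0.50 in Q7, where the adjusted p was 0.254 and, with the block, 0.029. The 2 responses differed by 0.10 (SE 0.219, adjusted p = 1), with a 95% interval from −0.36 to 0.56.

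Within chips 1, 2 and 3 the cystamine difference of Kdm5b was −0.34, −0.54 and −0.47. In the model of those 12 arrays its adjusted p was 0.085. Leaving out any of 8 of the 12 arrays concerned ended the call, with adjusted p up to 0.097. These were Q111 cystamine replicates 2 and 3, Q111 control replicates 1 and 3, Q7 cystamine replicates 1 and 2 and Q7 control replicates 1 and 3. Kdm5b has 1 probe on the array and lay near the middle of the intensity range, above the array median on 22 of 23 arrays.

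Setd7 read 8.61, 8.40 and 8.82 on the Q111 cystamine arrays, against 8.92, 8.87 and 9.0 on the Q111 control arrays. In Q7 it read 8.66, 8.69 and 8.70 with cystamine, against 9.24, 8.93 and 8.94 in the controls. Again no cystamine array reached the lowest control array of its line. The level with cystamine was 0.791 times that of the controls (95% interval 0.707 to 0.885), a log2 difference of −0.34 (SE 0.0777, limma adjusted p = 0.0198). It was −0.32 in Q111 and −0.35 in Q7, and the lines differed in this response by 0.03 (SE 0.155, adjusted p = 1).

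Within chips 1, 2 and 3 the cystamine difference of Setd7 was −0.44, −0.36 and −0.21. With the 12 arrays alone in the model its adjusted p was 0.109. The call ended without Q111 cystamine replicate 2, Q111 control replicate 3, Q7 cystamine replicate 1 or Q7 control replicate 1, with adjusted p up to 0.0712. The second probe of Setd7 gave −0.19 (SE 0.103, adjusted p = 0.504 over all probes tested).

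**Figure D3:**
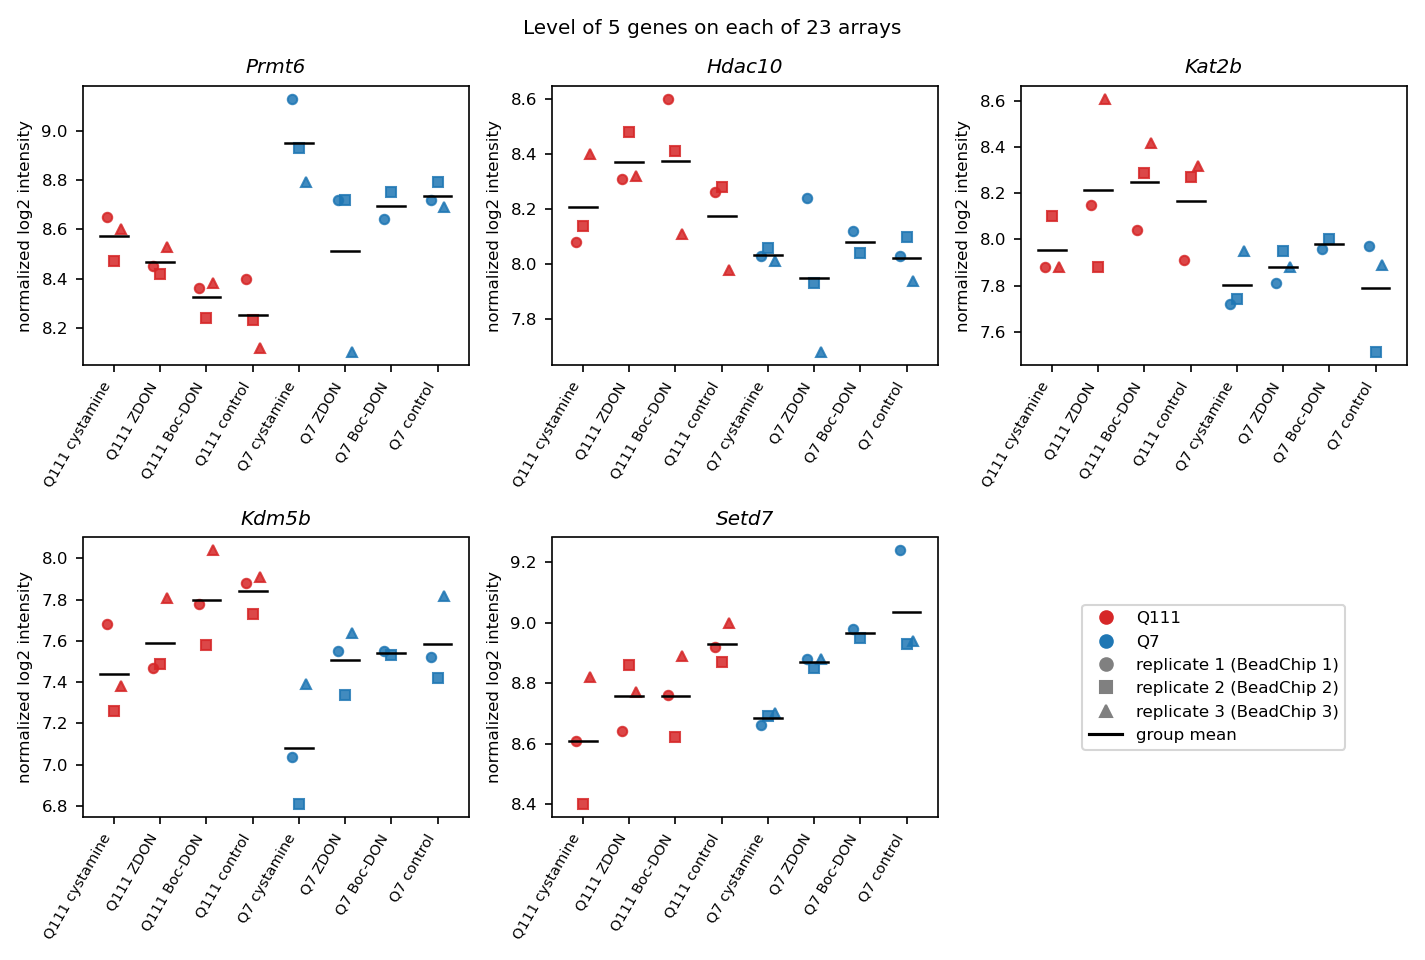
Normalized log2 intensity of 5 genes on each of 23 arrays, by group, with replicates (BeadChips) as symbols, Q111 in red, Q7 in blue and group means as lines. Vertical axes differ between panels and do not start at 0. Prmt6 arrays of Q111 lie below those of Q7 in every treatment but ZDON, and Kdm5b and Setd7 are lowest with cystamine in both lines.

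The promoters of Kdm5b and Setd7 are shown because these genes fell together with cystamine. Each sequence is the 300 bases from 250 before to 50 after the gene's start in RefSeq (GRCm38.p6), on the strand of the gene, with motif matches in capitals.

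Kdm5b (chr1:134559928-134560227, + strand): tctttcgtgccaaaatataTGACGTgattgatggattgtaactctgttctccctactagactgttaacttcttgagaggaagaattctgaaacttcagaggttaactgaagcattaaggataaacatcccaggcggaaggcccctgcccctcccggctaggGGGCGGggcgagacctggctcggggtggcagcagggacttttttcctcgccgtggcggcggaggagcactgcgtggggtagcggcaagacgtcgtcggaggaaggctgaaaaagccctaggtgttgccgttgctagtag

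Setd7 (chr3:51560774-51561073, − strand): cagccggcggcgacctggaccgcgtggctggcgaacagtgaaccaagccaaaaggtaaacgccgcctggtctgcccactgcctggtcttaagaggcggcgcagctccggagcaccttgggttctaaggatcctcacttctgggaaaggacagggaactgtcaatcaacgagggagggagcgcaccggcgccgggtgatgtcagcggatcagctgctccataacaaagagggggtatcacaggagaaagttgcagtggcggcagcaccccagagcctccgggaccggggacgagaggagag

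The 5 motifs searched on both strands included the GC box, spelled GGGCGG, the box spelled CCAAT and the E-box, spelled CACGTG. The others were a partial cyclic AMP response element, spelled TGACGT, and the antioxidant response element core, spelled TGACNNNGC. The full cyclic AMP response element was not searched. A TGACNNNGC match can begin with the letters of a TGACGT match. The Kdm5b window holds a GC box at position −89 and a partial cyclic AMP element at −231. Positions are counted from the gene's start to the first base of the match. The GC content of the Kdm5b window is 54.7%. The Setd7 window holds none of the 5, and its GC content is 62.7%. Of the 52 genes tested, 48 had a window, counted once a gene. The GC box occurs in 62.5% of these, against 35.7% of 32851 windows in all. The partial cyclic AMP element occurs in 14.6% against 7.51%. The antioxidant core occurs in 16.7% against 12.4% of all windows, and neither of the windows shown holds it. The CCAAT box occurs in 50% against 37.4%, and the E-box in 14.6% against 7.15%. The 32851 windows can hold several of a gene and take in genes whether or not they passed the filter, so the sets compared are unlike. These shares were not tested. A match is a run of letters and not a binding site.

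A further 6 genes had an unadjusted p under 0.05 with cystamine, but none passed. Prmt6 differed by 0.27 (SE 0.095, adjusted p = 0.193), by 0.32 in Q111 and by 0.21 in Q7. Prmt3 lay at 0.16, and Kdm1b, Brd7, Kdm4a and Brd3 at −0.18, −0.15, −0.20 and −0.20. The second probe of Kdm1b gave −0.00 (SE 0.123, limma adjusted p = 0.996 over all probes tested). Those of Brd7 and Kdm4a gave −0.16 and −0.23. In all 8 of 52 genes (15.4%) had an unadjusted p under 0.05, against 12.3% of all genes. The median difference was −0.063, with 33 genes below 0 and 19 above, beside −0.004 for all genes. With median scaling the median of all genes shifts by −0.11 with cystamine averaged over both lines, so that the fall of 7 genes there is to be read against that shift.

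**Figure D4:**
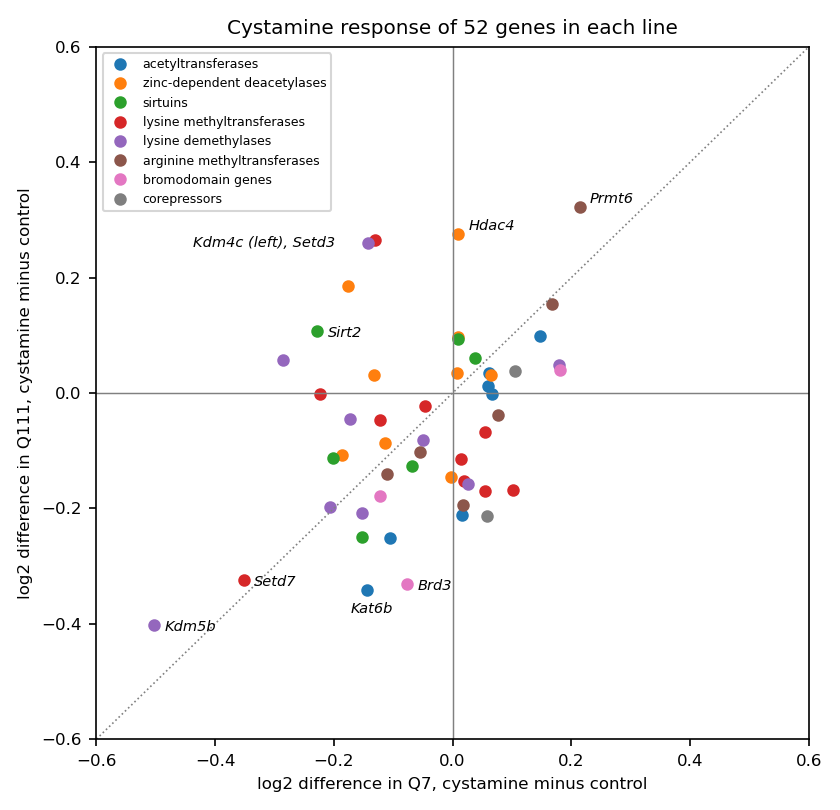
Log2 difference with cystamine in Q111 (vertical) and in Q7 (horizontal) for each of 52 genes, coloured by role, with a dotted line of equal response. Kdm5b and Setd7 lie at the lower left near the line, at −0.40 and −0.32 in Q111 and −0.50 and −0.35 in Q7. Each axis compares with the controls of its own line.

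With all arrays, ZDON and Boc-DON moved no gene of the 52 past the test. Without chip 3, Setd4 passed with ZDON in Q7 and over both lines, against 1.08% and 2.72% of all genes, and Rcor1 with Boc-DON over both lines, against 3.5%. With ZDON in Q111, 0 of 52 passed in limma, against 0% of all genes, and 0 had an unadjusted p under 0.05, against 6.87%. With ZDON in Q7, 0 of 52 passed, against 0.0203%, and 1 had an unadjusted p under 0.05, against 5.08%. Boc-DON gave 0 of 52 in Q111, against 0.0609%, with 5 at an unadjusted p under 0.05, against 9.16%. In Q7 it gave 0 of 52, against 0.0203%, with 1 at an unadjusted p under 0.05, against 7.54%. Averaged over both lines, 0 passed with ZDON, against 0.558%, and 4 had an unadjusted p under 0.05, against 9.63%. With Boc-DON 0 passed, against 0.975%, and 5 had an unadjusted p under 0.05, against 12.5%.

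The smallest adjusted p with Boc-DON was for Sirt7, a nucleolar sirtuin. It read 12.50, 12.49 and 12.58 on the Q111 Boc-DON arrays, against 12.26, 12.34 and 12.04 on the Q111 control arrays. In Q7 it read 12.49 and 12.50 with Boc-DON, against 12.35, 12.33 and 12.17 in the controls. Arrays with Boc-DON were higher than the controls without overlap, and the averaged difference was 0.26 (SE 0.0742, adjusted p = 0.0991). Treatment held 67.8% of the variance of Sirt7, which is the largest such share among the 52, followed by 53.9% for Brd7, 52% for Setd7 and 44.1% for Kdm5b.

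Other values with Boc-DON over both lines were 0.22 for Sin3a (adjusted p = 0.214), −0.39 for Hdac7, a class IIa deacetylase, (adjusted p = 0.22), −0.25 for Kat2a and 0.29 for Hdac6. With ZDON, Setd4 lay at −0.25, Kat2a at −0.24, Prmt5 at −0.27 and Setd7 at −0.17, none of which passed. Setd7 lay at −0.12 with Boc-DON. The 3 compounds share the same control arrays, so these values are not independent of each other. Kdm5b lay at −0.16 with ZDON and −0.04 with Boc-DON, beside −0.45 with cystamine.

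**Figure D5:**
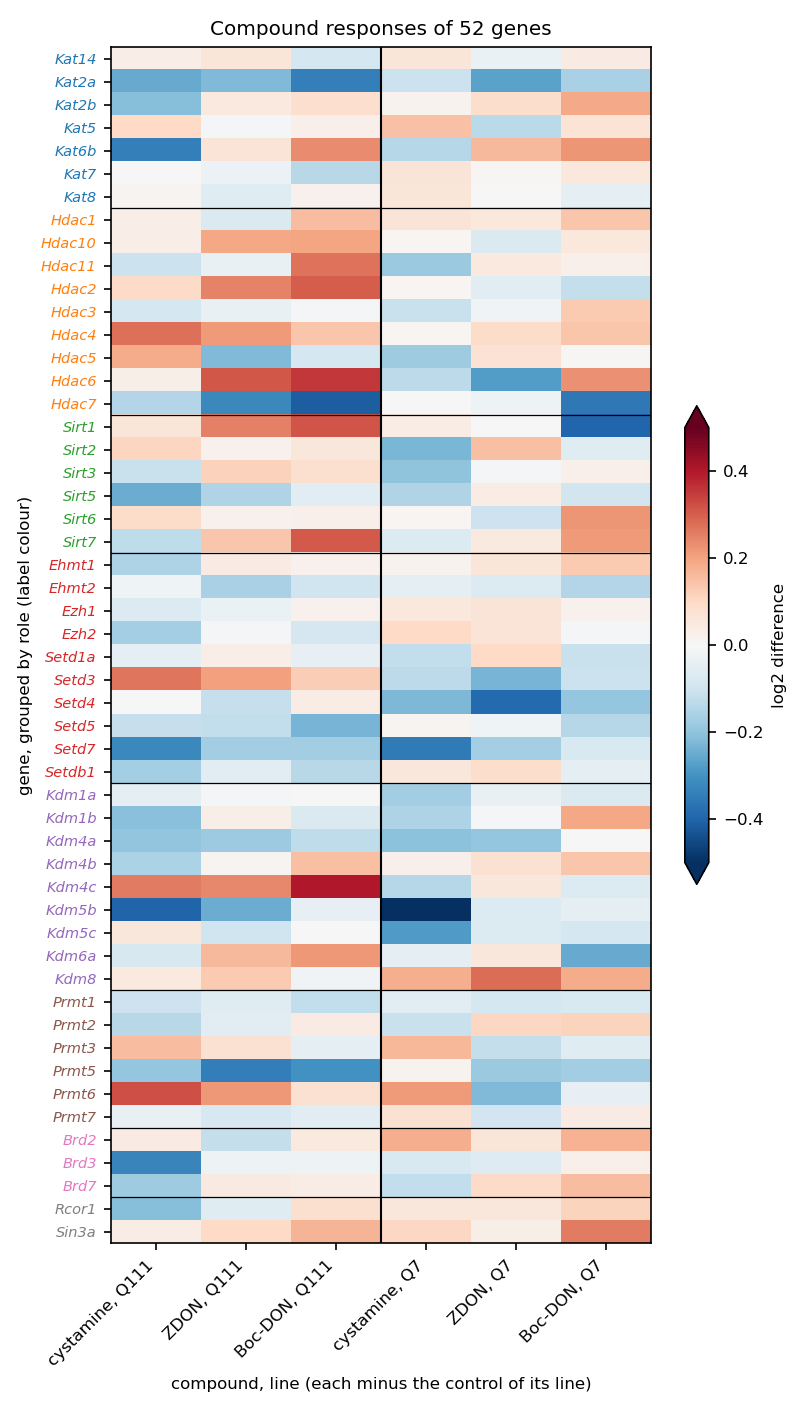
Log2 difference of 52 genes from the control of their line with 3 compounds in Q111 (left) and Q7 (right), with genes grouped by role and colour from −0.5 to 0.5. Kdm5b and Setd7 are blue with cystamine in both lines, and Hdac6 has opposite signs with ZDON in Q111 (0.31) and Q7 (−0.28).

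ZDON and Boc-DON are inhibitors named for the same diazo-oxo-norleucine group with different blocking groups, benzyloxycarbonyl (Z) and tert-butoxycarbonyl (Boc). The names do not give the rest of each molecule, which may differ too. The compounds were compared with each other at the same dose and time in each line. In these 2 pairs none of the 52 genes passed the test in limma, against 0% of all genes in each, with p-values adjusted over 9849 genes within a pair. At an unadjusted p under 0.05 there were 2 genes in Q111, against 3.87% of all genes, and 2 in Q7, against 6.55%. In Q111 these were Hdac11, the class IV deacetylase, at −0.31 (SE 0.141, adjusted p = 1) and Hdac1 at −0.22 (SE 0.105, adjusted p = 1). In Q7 they were Hdac6 at −0.51 (SE 0.187, 95% interval −0.90 to −0.12, adjusted p = 0.731) and Sirt6 at −0.33 (adjusted p = 0.76). Median interval half-widths were 0.282 in Q111 and 0.315 in Q7, so that 46 and 43 of the 52 genes had an interval within ±0.5. A miss of the threshold does not show that the compounds act alike.

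Hdac6 was the gene of the 52 whose response to ZDON differed most between Q111 and Q7. It read 9.57, 9.70 and 9.73 on the Q111 ZDON arrays, against 9.2, 9.69 and 9.17 on the Q111 control arrays. In Q7 it read 9.29, 9.46 and 9.23 with ZDON, against 9.62, 9.76 and 9.44 in the controls. The response in Q111 minus that in Q7 was 0.59 (SE 0.236, adjusted p = 1), and 2 genes of the 52 had an unadjusted p under 0.05 there, against 2.14% of all genes. For the responses to cystamine and to Boc-DON those counts were 0 and 1, against 4.02% and 3.25%. No gene tested passed an adjusted p of 0.05 for any of the 3 responses. These counts are of the chosen probes. The second probe of Hdac5 gave 0.55 (SE 0.161) for the cystamine response in Q111 minus that in Q7, without passing. The chosen probe of Hdac5 gave 0.36. With Boc-DON, Sirt1 differed most between the lines, at 0.71 (SE 0.428, adjusted p = 0.999), and at 0.51 with the block. The Q7 Boc-DON group lacks chip 3, the chip where Sirt1 was highest.

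Genes outside the rule were read from 5 lists, with 100 genes tested in all. The lists hold other acetyltransferases, lysine methyltransferases, demethylases and readers, and members of acetyltransferase, deacetylase and methyltransferase complexes. Over the 4 treatments 10 of the 100 (10%) passed in the line comparison, 2 higher and 8 lower in Q111, against 11.3% of all genes. With the chip as a block 18 passed (18%), 5 higher and 13 lower, against 17.2%. Lower were Smyd5 at −0.36 (adjusted p = 0.00273) and Smyd3 at −0.24, both SET and MYND methyltransferases, and Dot1l, the lysine 79 methyltransferase, at −0.27 (adjusted p = 0.00266). Riox1 and Hspbap1, JmjC oxygenases, lay at −0.29 and −0.27, Ruvbl1, an ATPase of the TIP60 complex, at −0.28, Rcor2, a CoREST paralogue, at −0.25, and Trim28, the KAP1 corepressor, at −0.18. Higher were Ing4, a reader in an acetyltransferase complex, at 0.26 and Rcor3 at 0.19. With cystamine 1 of 100 passed in Q111, against 0.64% of all genes, which was Prdm9, a meiotic lysine 4 methyltransferase, at −0.55 (adjusted p = 0.0099), and it lay at −0.41 over both lines (adjusted p = 0.00274). With Boc-DON over both lines Rcor2 fell by 0.47 (adjusted p = 0.0265), 1 of 100 genes against 0.975% of all. With the block 2 of 100 passed with cystamine over both lines, against 3.68% of all genes, and 2 with Boc-DON, against 2.78%.

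Several of these calls were lost without single arrays or other settings. Ruvbl1 lost its call without Q111 Boc-DON replicate 2 or Q7 Boc-DON replicate 1 (adjusted p up to 0.0978), and Rcor2 without the same Q7 array (adjusted p = 0.0761). Prdm9 in Q111 lost its call without Q111 cystamine replicate 1 or Q111 control replicate 3 (adjusted p up to 0.111), and Rcor2 with Boc-DON lost its call without any of 8 of 11 arrays (adjusted p up to 0.16). Rcor3, Smyd3 and Trim28 lost theirs without any of 15, 13 and 13 of the 23 arrays, with adjusted p up to 0.106, 0.128 and 0.0891, and also without the filter on dim probes. Prdm9 in Q111 had an adjusted p of 0.253 when the 6 arrays compared stood alone in the model, and Ing4 one of 0.0648 without chip 3. With median scaling Dot1l, Smyd5, Smyd3, Riox1, Hspbap1, Ruvbl1, Rcor2 and Trim28 did not pass.

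Of 37 genes known to be silenced by REST in non-neuronal cells, 14 passed the filter. Syn1, a synaptic vesicle gene, was 0.18 higher in Q111 (adjusted p = 0.0434) and made 1 call of 14 (7.14%), against 11.3% of all genes. The median of the 14 was 0.043, beside −0.008 for all genes. With the block 2 of the 14 passed (14.3%), against 17.2% of all genes. Syn1 did not pass without the filter on dim probes, nor without any of 18 of the 23 arrays (adjusted p up to 0.0934).

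Probes beyond the one chosen per gene were tested for 20 of the 52 genes, 25 probes in all. In the line comparison 0 of the 25 passed in limma over all probes, 5 had an unadjusted p under 0.05, and 20 had the sign of the chosen probe. For cystamine over both lines 0 of 25 passed, 3 had an unadjusted p under 0.05, and 17 had the same sign.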

How the data were processed

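Total RNA of 23 samples was read on Illumina mouse bead arrays. A deposited table gives intensity per probe, which the authors made with BeadStudio, per the submitters' processing notes. Its version, and whether it subtracted a background, are not given in the sources used here. Normalized log2 values that the authors deposited as well equal quantile-normalized log2 intensities within 5e-09 and were used as an alternative. The intensity table has 1 array column without a sample, which was left out.

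In limma 3.58.1 under R 4.3.3, a normexp background correction with an offset of 50 was followed by quantile normalization and log2. A probe had to exceed the median of its array on at least 2 arrays. An 18S ribosomal probe was kept out of the gene table. All 23 arrays entered 1 model with 8 group means and 15 residual degrees of freedom (13 with the chip as a block). P-values are limma's, two-sided, adjusted by Benjamini-Hochberg over 9849 genes in each of 16 comparisons. SE is the moderated standard error. The model was tested on simulated data for the line comparison alone, with independent noise on each array and no chip effect. The simulated differences were larger than the line differences called among the histone-modifying genes, so smaller ones and chip effects were not covered. Other probes were tested among 12504 probes with a symbol.

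Replicate numbers are BeadChips in the labels. Arrays of different groups with the same number correlated across genes, after group means were removed, with a median r of 0.209 and 72 of 77 values above 0. Between numbers the median r was −0.112, with 44 of 154 above 0, and genes are not independent replicates. The numbers therefore pair the arrays, and blocked values are given where they change a call.

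Named are genes past the threshold, the 2 largest line differences per role, a fixed list of well-known members, genes that did not pass the filter, and up to 3 genes of each further list where 1 passed. Kat2a, Kat5, Prmt1, Prmt3, Prmt7, Sirt7, Hdac7, Hdac11, Kdm1b, Kdm4a, Brd3 and Ezh1, and values of the named genes elsewhere, were added once their values were known. The genes, lists and tests were all chosen with earlier results of these data known. Promoters are RefSeq windows matched by symbol, and Hdac10 has none here.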

Additional observations from a re-analysis of the deposited data

How the results depend on the processing

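The alternatives were the chip as a block (replicate block), no filter on dim probes, no background correction, median scaling, the deposited log2 values, the arrays of the groups compared alone, leaving out chip 3 and leaving out each array in turn. Where a Q7 Boc-DON array was left out, the lone array was assumed to vary like the other groups. Of 16 counts of genes called, 9 stayed within 1.5 times their value under every setting but leaving out 1 array. The replicate block gave 1 call among the controls, 7 in the line comparison over the treatments and 1 with cystamine in Q7, and changed no other count by over 1.5 times. Median scaling gave 5 line calls and 7 with cystamine over both lines. Without chip 3 there were 3 calls among the controls (3.97% of all genes) and 12 over the treatments (21.6%). There was 1 each with ZDON in Q7 (Setd4, 1.08% of all genes), with ZDON over both lines (Setd4, 2.72%) and with Boc-DON over both lines (Rcor1, 3.5%). The arrays of the groups compared alone gave 0 with cystamine over both lines (1.26% of all genes). Leaving out each array in turn gave 0 to 1 call among the controls, 1 to 6 over the treatments, 0 to 2 with cystamine over both lines and 0 in every other comparison. The cause of these changes was not tested.

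Some line differences near 0 changed sign. With the replicate block Hdac2 was −0.01, Sirt1 −0.02 and Sirt2 0.01. With median scaling Hdac6 was 0.07, Sirt2 0.12, Setdb1 0.04, Kdm1a 0.05, Prmt5 0.06, Sin3a 0.02 and Brd2 0.03, and Brd2 was 0.03 without chip 3. Leaving out each array in turn gave −0.03 to 0.08 for Hdac2, −0.10 to 0.04 for Hdac6, −0.08 to 0.02 for Prmt5, −0.04 to 0.13 for Sirt1 and −0.03 to 0.02 for Sirt2. Over 46 named genes with their comparison, 236 values kept their side of the threshold and direction, 17 came to pass, 19 no longer passed and 11 changed sign, under settings other than leaving out 1 array. Median scaling shifts the median of all genes by −0.103, −0.118 and −0.11 with cystamine in Q111, in Q7 and over both lines, and by 0.058 between the lines. Signal over background could not be judged, since no detection p-values were used, so differences of genes near the array median are the least certain.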
